A study of Mus musculus with 12 samples.

Results

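AP-1 (activator protein 1) is a transcription factor made of pairs of basic leucine zipper (bZIP) proteins. The 10 genes described here are *Fos*, *Fosb*, *Fosl1* and *Fosl2* of the Fos group, *Jun*, *Junb* and *Jund* of the Jun group, and the related *Atf3*, *Batf* and *Maff*. They were selected by symbol, as the probes whose gene name in the array files equals one of these symbols, out of 36693 gene names on the array. The list was drawn up with the values of these genes over the groups already known, so those values are given as a description. No p-value is printed for a member, and where members past a threshold are counted, the share of all probes past it stands beside the count and the count supports nothing, since the choice of members used the same values. All 10 genes had at least 1 probe and 4 had more than 1, giving 15 probes.

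The samples were heart muscle RNA of 5-month-old male C57BL6/J mice, hybridised to 12 arrays with 1 mouse on each and 3 mice in each of 4 groups. Control mice (C) received neither drug. C + P mice were non-diabetic and received pargyline, an inhibitor of the monoamine oxidases that break down noradrenaline, dopamine and serotonin, at 50 mg/kg/day for 12 weeks. D mice were made diabetic with streptozotocin, which kills the insulin-producing cells of the pancreas, at 50 mg/kg/day for 5 days, and D + P mice received streptozotocin and then pargyline at the same doses. The RNA came from tissue and not from sorted cells, so fewer cells of a type and less RNA per cell cannot be told apart. All 8 ventricular cardiomyocyte markers were well above background on all 12 arrays.

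Fos proteins bind DNA only when paired with a Jun protein, whereas Jun proteins also pair with themselves, and both kinds of dimer recognise the same short site in promoters and enhancers. *Fos*, *Fosb*, *Junb* and *Atf3* are immediate early genes. Their transcription starts within minutes of a stimulus without new protein being made, through the factors SRF and ELK, which bind the CArG box and its neighbouring bases, and through CREB, which binds the cyclic AMP response element (CRE), and their mRNAs decay quickly. In the heart they are known to respond to adrenergic stimulation, stretch and ischaemia. *Jund* is by contrast made in most tissues at rest.

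The promoters are shown because several of these genes moved together over the arrays. Sequences were taken from RefSeq (GRCm38.p6), where 9 of the 10 genes had 11 promoter windows between them and *Fosl1* had none. The 120 bases before the start site are printed 5′ to 3′ for *Fos*, *Fosb*, *Junb*, *Atf3*, *Maff*, *Jun* and *Fosl2*, the genes whose C + P arrays lay above those of C. For *Maff* the second of 3 windows is shown, picked for its match, and the first window has none. Capitals mark matches on either strand to the letters TGACG (the CRE core), TGACGT, TGACNTCA or TGANTCA (the AP-1 site).
*Fos*, chr12:85473770-85473889, plus strand: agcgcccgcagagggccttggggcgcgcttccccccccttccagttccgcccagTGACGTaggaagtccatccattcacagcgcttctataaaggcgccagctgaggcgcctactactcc
*Fosb*, chr7:19310046-19310165, minus strand: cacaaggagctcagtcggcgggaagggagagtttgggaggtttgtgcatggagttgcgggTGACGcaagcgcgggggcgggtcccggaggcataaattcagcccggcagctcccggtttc
*Junb*, chr8:84978749-84978868, minus strand: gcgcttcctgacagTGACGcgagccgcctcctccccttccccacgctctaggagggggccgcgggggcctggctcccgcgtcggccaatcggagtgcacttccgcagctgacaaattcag
*Atf3*, chr1:191183334-191183453, minus strand: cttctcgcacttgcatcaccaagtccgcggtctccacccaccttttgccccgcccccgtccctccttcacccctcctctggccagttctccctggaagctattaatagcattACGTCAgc
*Fosl2*, chr5:32136352-32136471, plus strand: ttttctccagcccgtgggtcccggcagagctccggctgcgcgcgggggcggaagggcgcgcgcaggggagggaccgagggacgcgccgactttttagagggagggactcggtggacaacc
*Jun*, chr4:95052223-95052342, minus strand: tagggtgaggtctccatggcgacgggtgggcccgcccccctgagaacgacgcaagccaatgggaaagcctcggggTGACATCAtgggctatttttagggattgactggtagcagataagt
*Maff*, chr15:79347400-79347519, plus strand: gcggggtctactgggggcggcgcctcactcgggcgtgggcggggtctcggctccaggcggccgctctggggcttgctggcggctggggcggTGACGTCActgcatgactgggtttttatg

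In the 250 bases before the start, both strands read, the core TGACG occurred in 6 of the 9 genes (*Fos*, *Fosb*, *Junb*, *Atf3*, *Batf* and *Maff*), in 7 of their 11 windows, against 17.8% of all 32851 promoter windows of the same length. The first base of the match lay 66 bases before the start in *Fos*, which had a second core at 129, and at 60 in *Fosb* and 106 in *Junb*. In *Atf3* the match was on the other strand and close to the start site, with its first base as printed at 8. The longer TGACGT, which contains the core, was found in 4 genes (*Fos*, *Atf3*, *Batf* and *Maff*) and in 6.47% of all windows. TGACNTCA, which with G at the open base also contains the core, was found in *Jun*, at 45 bases, and in *Maff*, at 29 and, in another window, at 45, against 7.49% of all windows. TGANTCA occurred in 0 of the 11 windows and in 6.75% of all, and the CArG box in 0 of the 11 and in 1.47% of all. *Fos* was the 1 member with the TATA box TATAAA, 33 bases before the start, which 12.4% of windows hold. A match describes letters and does not show that a factor was bound, and sites outside these 250 bases were not searched.

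Values are log2 signals after quantile normalisation between the 12 arrays. Testing required a positive and significant signal, as the scanner software defines it, on 50% or more of the arrays in each of the groups, a filter that kept 10 of the 15 member probes and 9 of the 10 genes. Each probe has its own hybridisation efficiency, so values compare arrays and not genes. Of the member probes, 6 were well above background on all 12 arrays and 3 on 0 arrays. C and D lay on 1 slide and scan and C + P and D + P on another, so slide and pargyline cannot be told apart in C + P against C or D + P against D, while D against C and D + P against C + P are comparisons within a slide. On both slides the non-diabetic samples occupied row 1 and the diabetic ones row 2, so the row cannot be told apart from diabetes. Repeated spots of a probe had a median coefficient of variation of 6.03% to 35.3%, and in all 4 groups replicate 1 had the highest. Between 23556 and 29231 of 59305 spots per array were well above background, and 0 were saturated.

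*Fos*, the founding member of the Fos group, was high in C + P and low in the other groups. Its log2 signal (probe on chromosome 12, 86818118 to 86818177, mm9) was 9.0, 9.45 and 9.16 on the C + P arrays, in order of replicate number. It was 3.76, 4.99 and 5.59 in C, 3.23, 4.61 and 4.63 in D, and 5.26, 4.75 and 5.34 in D + P. No C + P array came near any other array, while the other 3 groups lay low, with D below all D + P arrays and C spread over both. The spot was well above background on 3 of 3 arrays in C + P, on 1 of 3 in C and on 0 of 3 in both diabetic groups, so most of the low values only bound the level. The value of D replicate 1 was not a positive and significant signal. The mean was 4.42 log2 higher in C + P than in C (SE 0.47), where C is a level measured on 1 array. Against C + P the mean of D + P differed by -4.09 log2 (SE 0.47). With each D + P array held at the higher of its own value and the lowest signal well above background on that array, the fall of *Fos* from C + P to D + P was at least 16-fold, a bound that holds for this background handling only, since the difference with normexp background correction was -2.63 log2. The order of the means was C + P, D + P, C and D, of which only the first stood apart from its neighbour.

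*Fosb* encodes a Fos protein whose truncated form is known to persist in stimulated tissue. Its log2 signal (probe 1, chromosome 7, 19888168 to 19888227, mm9) was 7.17, 7.85 and 8.08 in C + P. The values were 5.25, 5.03 and 4.56 in C, 5.12, 5.08 and 4.47 in D, and 5.29, 4.05 and 5.03 in D + P. As for *Fos*, every C + P array lay above the other 9, and here the other 3 groups overlapped. *Fosb* was well above background on 2 of 3 arrays in C and on 0 of 3 in both diabetic groups. The difference was 2.76 log2 for C + P against C (SE 0.36) and -2.91 log2 for D + P against C + P (SE 0.36), the latter at least 6.02-fold when bounded in the same way and with the same restriction (-1.30 log2 with normexp). A second *Fosb* probe (19890146 to 19890205) was well above background on 0 arrays and was not tested. It read 2.86, 5.03 and 3.97 in C + P, and its other 9 values lay between 2.88 and 3.37.

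*Fosl2*, which encodes FRA2, a Fos protein without the strong activation domain of FOS, was well above background on all 12 arrays and moved less. Its log2 signal (probe 1, chromosome 5, 32460076 to 32460135, mm9) was 9.77, 9.24 and 8.73 in C + P. It was 8.14, 8.32 and 8.23 in C, 9.0, 8.27 and 8.17 in D, and 8.50, 8.09 and 8.02 in D + P. C + P lay above C and above D + P on every array but overlapped D. The difference was 1.02 log2 for C + P against C and -1.04 log2 for D + P against C + P (SE 0.29 each). A second *Fosl2* probe (32455088 to 32455147), not tested, was well above background on 1 array, C replicate 3. It read 3.73, 4.94 and 5.49 in C, 3.19, 5.33 and 4.75 in C + P, 3.58, 3.28 and 3.28 in D, and 4.84, 5.13 and 3.27 in D + P, so here C and not C + P had the highest mean and both overlapped. *Fosl1*, which encodes FRA1, was well above background on 1 array, D replicate 2, and was not tested. The *Fosl1* signal ranged from 2.83 to 3.00 in C and from 2.99 to 3.49 in C + P.

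**Figure D1:**
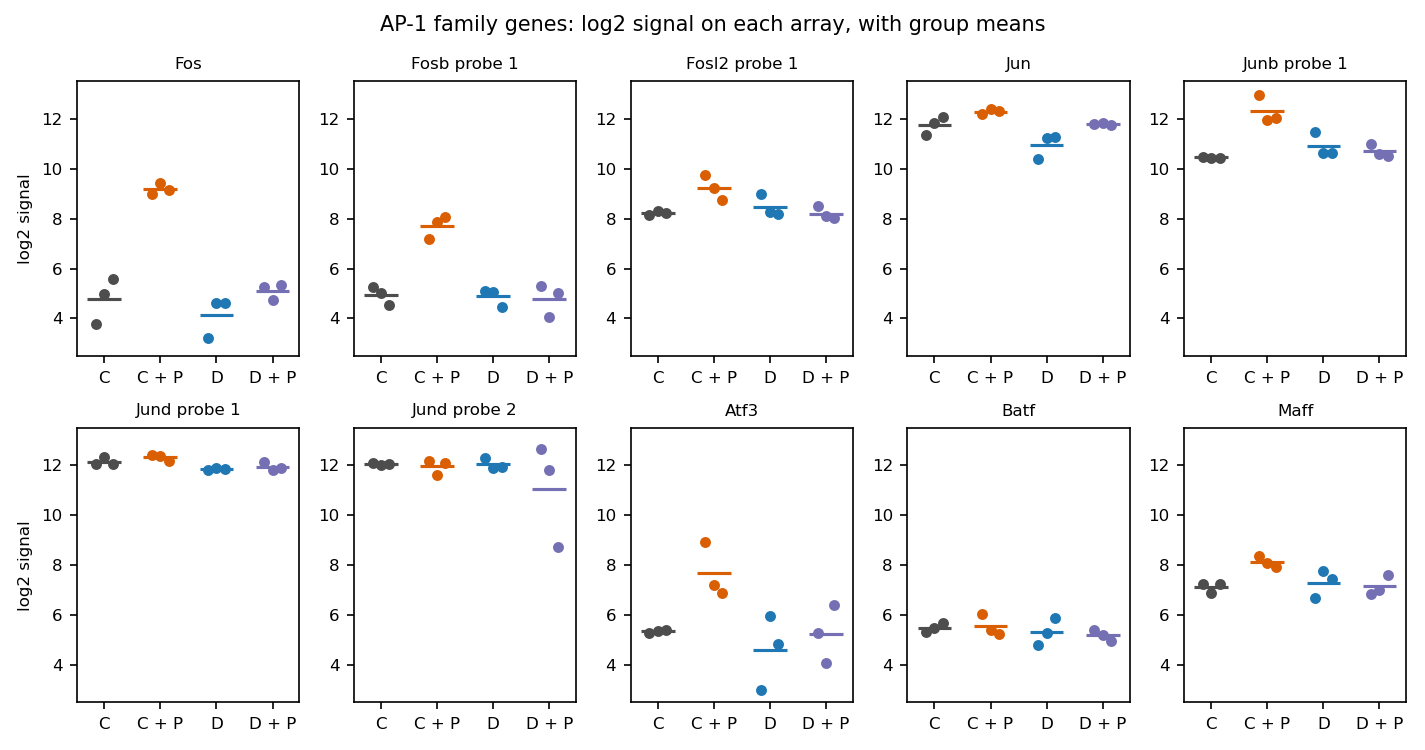
Log2 signal (vertical axis) of the 10 tested probes of the AP-1 family in C, C + P, D and D + P. Each point is the array of 1 mouse, from replicate 1 on the left to replicate 3 on the right, and each line is a group mean. *Fos* reads 9.0 to 9.45 in C + P and at most 5.59 elsewhere, while both *Jund* probes stay near 12 except for 1 D + P array of probe 2 at 8.71.

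*Jun*, the Jun protein with the strongest activation domain, was well above background on all 12 arrays and differed between groups in another way. Its log2 signal (chromosome 4, 94716928 to 94716987, mm9) was 11.37, 11.83 and 12.07 in C and 12.19, 12.38 and 12.32 in C + P. It was 10.38, 11.23 and 11.29 in D and 11.81, 11.84 and 11.77 in D + P. Every C + P array lay above the other 9 and every D array below them, while C and D + P overlapped. The mean was 0.79 log2 lower in D than in C (difference -0.79), 0.84 log2 higher in D + P than in D, 0.54 log2 higher in C + P than in C, and the difference of D + P from C + P was -0.49 log2, each with an SE of 0.25. D replicate 1, the array with the noisiest repeated spots, gave the lowest value, and without it the difference of D against C was -0.50.

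*Junb*, whose protein activates poorly alone and can counter JUN, followed the pattern of *Fos* at a smaller size. Its log2 signal (probe 1, chromosome 8, 87500843 to 87500902, mm9) was 12.96, 11.95 and 12.05 in C + P. It was 10.47, 10.45 and 10.45 in C, 11.46, 10.62 and 10.62 in D, and 10.98, 10.60 and 10.51 in D + P. Every C + P array lay above the other 9, and the C arrays, which hardly differed among themselves, lay below all others. The difference was 1.86 log2 for C + P against C, -1.63 log2 for D + P against C + P and 0.44 log2 for D against C (SE 0.30 each), the last falling to 0.16 without D replicate 1. Of the 2 other *Junb* probes, neither was tested, and both were well above background on 0 arrays. Probe 2 (87501881 to 87501940) read 5.31, 3.80 and 3.94 in C + P and from 3.05 to 3.36 elsewhere, so its C + P arrays were again the highest. Probe 3 (87496635 to 87496694) has an accession that RefSeq did not pair with a symbol, and it read from 2.90 to 3.58 on all arrays.

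*Jund* had 2 tested probes, both well above background on all 12 arrays. Probe 1 (chromosome 8, 73224302 to 73224361, mm9) ranged from 11.81 to 12.40 over all arrays. Its D + P arrays (11.82 to 12.14) lay just below those of C + P (12.18 to 12.40), with a difference of -0.37 log2 (SE 0.15), and its D arrays just below those of C (-0.30), and with normexp background correction these were -0.16 and -0.07. Probe 2 (73224436 to 73224495) read from 11.62 to 12.67 on 11 arrays and 8.71 on D + P replicate 3, where probe 1 read 11.89. That 1 array set its difference for D + P against C + P, which was -0.90 log2 with it (SE 0.76) and 0.29 log2 without it.

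*Atf3*, a stress-induced bZIP gene whose protein often represses its targets, was also highest in C + P. Its log2 signal (chromosome 1, 192994547 to 192994606, mm9) was 8.93, 7.19 and 6.89 in C + P and 5.27, 5.36 and 5.42 in C. It was 2.98, 5.96 and 4.86 in D and 5.30, 4.06 and 6.42 in D + P, where it was well above background on 1 of 3 arrays in each group. Every C + P array lay above the other 9, by the least margin between C + P replicate 3 and D + P replicate 3. The difference was 2.32 log2 for C + P against C and -2.41 log2 for D + P against C + P, with an SE of 0.79, and with normexp background correction 1.35 and -1.21 log2. Its arrays were widely spread in C + P, D and D + P, with SDs of 1.10, 1.51 and 1.18, and the value of D replicate 1 was not a positive and significant signal.

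*Maff*, a small Maf protein that has no activation domain and pairs with other bZIP proteins, read 8.36, 8.08 and 7.93 in C + P and 7.23, 6.87 and 7.23 in C (chromosome 15, 79189442 to 79189501, mm9). It read 6.67, 7.76 and 7.46 in D and 6.85, 6.99 and 7.62 in D + P. C + P was again above all other arrays, by 1.01 log2 over C and with D + P 0.97 log2 lower (difference -0.97, SE 0.29 for both), and with normexp by 0.60 and -0.61 log2. *Batf*, known mainly from lymphocytes, ranged from 4.81 to 6.06 (chromosome 12, 87049872 to 87049929, mm9), was well above background on 6 of the 12 arrays, and its 4 groups overlapped, with a difference of 0.08 log2 for C + P against C (SE 0.29). Among the C + P arrays, replicate 1 was the highest for *Atf3*, *Junb*, *Fosl2*, *Maff* and *Batf* but the lowest for *Fos*, *Fosb* and *Jun*.

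C + P against C asked what pargyline changed in hearts without diabetes. With limma and a Benjamini-Hochberg adjusted p under 0.05 over 30859 probes, the probes past the threshold in the higher direction were 0.0292% of all, and they included those of *Fos* and *Fosb*, 2 of the 9 tested genes. The C + P arrays lay wholly above the C arrays for 7 of 10 member probes and for 7.35% of all tested probes. The median difference was 1.02 log2 over the member probes and -0.01 over all. These counts are a description, since the genes were listed with this contrast known. With normexp background correction the *Fos* difference was 2.66 log2 and that of *Fosb* 1.38 log2. The methods' t-test called 0 members and 0 of all probes. Limma also called 0 members without C replicate 2 or any 1 of the C + P arrays, where 4 or 5 of all probes passed. *Fosb* was lost without C replicate 1 or 3, any 1 of the D arrays or D + P replicate 3. With a block for replicate number, or without the filter on dim probes, *Fosb* was lost too and *Fos* remained. Without the noisiest array of C + P, D and D + P (an alternative chosen after the data were seen), *Junb* was the 1 member that passed.

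D + P against C + P asked how diabetes changed the heart under pargyline, and it uses the same C + P arrays, so it is no second observation of their high values. Probes past the threshold in the lower direction were 0.0421% of all and included those of 2 members, *Fos* and *Fosb*, a description again, since the genes were listed with this contrast known. The D + P arrays lay wholly below the C + P arrays for 8 of 10 member probes and for 6.57% of all. The 8 were all but *Batf* and *Jund* probe 2, and the median difference was -1.0 log2 over the member probes and 0.01 over all. The methods' t-test called 0 members and 0 of all probes. Limma also called 0 members without C + P replicate 2 or 3 or D + P replicate 2 or 3, where 5 to 7 of all probes passed. *Fos* was lost without C + P replicate 1, and *Fosb* without any 1 of the C arrays or D replicate 1 or 2. *Fosb* was also lost with a block for replicate number. Without the noisiest array of C + P, D and D + P both were lost, and *Junb* was the 1 member that passed. Both groups lay on 1 slide, with C + P in its row 1 and D + P in its row 2, and slide row cannot be told apart from diabetes.

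**Figure D2:**
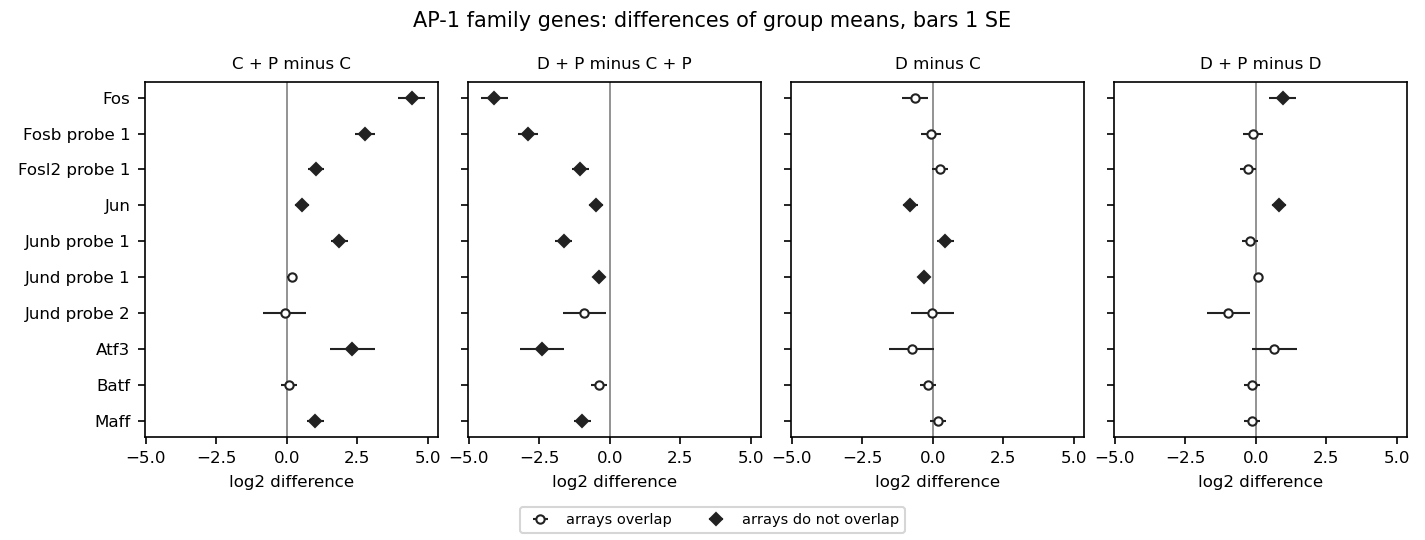
Differences of group means (horizontal axis, log2) of the 10 tested probes in 4 comparisons, with bars of 1 SE from limma. Filled diamonds mark probes whose arrays did not overlap between the 2 groups. The *Fos* point lies at 4.42 for C + P minus C and at -4.09 for D + P minus C + P, and all points for D minus C lie between -0.79 and 0.44.

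D against C asked what diabetes changed without pargyline. Here limma called 0 of the 9 tested genes (0.00648% of all probes passed, in either direction), with 1 gene at an unadjusted p under 0.05, as had 10.8% of all probes. The methods' t-test called 0 members and 0 of all probes. Arrays of the 2 groups did not overlap for 1 member probe that was higher in D (*Junb*) and for 2 that were lower (*Jun* and *Jund* probe 1), where 11.9% and 10.4% of all tested probes were apart in those directions. The median member difference was -0.11 log2. The *Fos* arrays of the 2 groups overlapped, and it was well above background on 1 C array and 0 D arrays, so no fold is given for it.

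D + P against D asked what pargyline changed in diabetic hearts. In this comparison too limma called 0 members (0% of all probes passed), with 1 gene at an unadjusted p under 0.05, as had 13.3% of all probes. The methods' t-test called 0 members and 1 of all probes. *Jun* (0.84 log2, and 0.55 without D replicate 1) and *Fos* lay wholly higher in D + P, 2 of 10 probes beside 7.92% of all tested probes. *Fos* was well above background on 0 arrays of either group, so no difference is given for it. Of the other members whose C + P arrays lay above those of C, *Fosl2*, *Junb*, *Maff* and *Atf3* overlapped between D + P and D. The sign of the *Junb*, *Maff* and *Atf3* differences turned in some alternatives (from -0.20 to 0.08, from -0.14 to 0.09 and from 0.66 to -0.17 log2). *Fosb* was well above background on 0 arrays of either group.

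The interaction is the difference of D + P from C + P minus that of D from C. It was -3.46 log2 for *Fos* (SE 0.67), -2.85 for *Fosb* (SE 0.50), -2.07 for *Junb* (SE 0.42), -1.66 for *Atf3* (SE 1.12), -1.29 for *Fosl2* (SE 0.41), -1.15 for *Maff* (SE 0.42) and 0.30 for *Jun* (SE 0.36). Limma called 0 members, where 0.00648% of all probes passed, and 5 genes had an unadjusted p under 0.05, as had 7.03% of all probes. *Fos* and *Fosb* were well above background on 0 D and 0 D + P arrays, so their interactions rest partly on values that only bound the level, and with normexp they were -2.50 and -1.36 log2. In that setting *Fos* passed, where 4 of all probes did. The interaction of *Atf3* ranged from -2.47 to -0.98 log2 over the alternatives. *Jun* was the 1 gene of these 7 with an interaction of the other sign, which was -0.05 without the noisiest arrays, and its arrays were apart in all 4 pairwise comparisons.

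**Figure D3:**
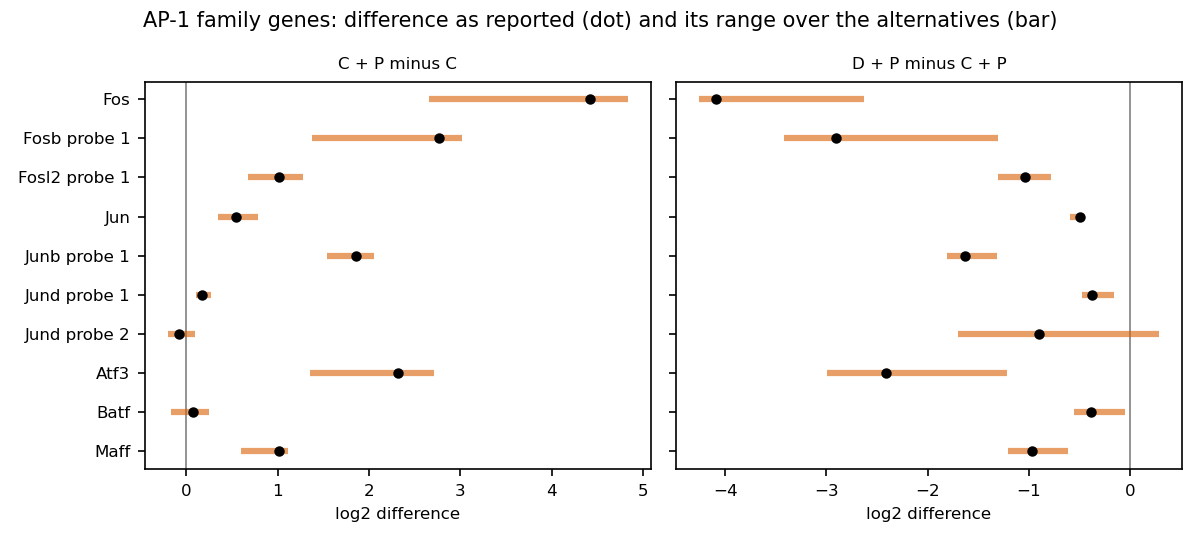
Difference of group means (horizontal axis, log2) as reported (dot) and its lowest to highest value over the alternatives in the processing (bar), for C + P minus C and D + P minus C + P. The *Fos* bar runs from 2.66 to 4.83 for C + P minus C and from -4.26 to -2.63 for D + P minus C + P, and that of *Jund* probe 2 crosses 0.

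The likeness of other profiles to that of *Fos* was measured as the root mean square (RMS) difference over the 12 arrays, after subtraction of each probe's own mean. *Fos* itself varied with an RMS of 2.06 log2 around its mean, and the median over 20816 other gene names was 2.07. Within the family *Fosb* (1.08 log2, rank 5) and *Atf3* (1.16, rank 6) were nearest. They were followed by *Junb* (1.52, rank 27), *Jun* (1.65, rank 96), *Maff* (1.67, rank 130) and *Fosl2* (1.76, rank 345), with *Jund* (1.91, rank 2233) and *Batf* (1.95, rank 3907) far behind. The arrays share slides and labelling, and *Fos* was well above background on 4 arrays, *Fosb* on 5 and *Atf3* on 8, so much of the RMS is taken over values that only bound the level and the ranking is a rough description.

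The 6 nearest genes outside the family were *Egr1* (0.68 log2), *Nr4a1* (0.93), *Cxcl1* (0.96), *Egr2* (1.05), *Thbs1* (1.17) and *Ier2* (1.18). *Egr1* and *Egr2* encode zinc finger factors and *Nr4a1* an orphan nuclear receptor of the immediate early class, *Cxcl1* a chemokine that attracts neutrophils, *Thbs1* the matrix protein thrombospondin, and *Ier2* a small nuclear protein. The *Egr1* log2 signal was 12.37, 11.60 and 11.74 in C + P. Its other 9 arrays lay between 7.22 and 8.43, so *Egr1* also stood clear of them in C + P. *Nr4a1* read from 11.62 to 12.73 in C + P and from 8.42 to 9.41 elsewhere. These genes were picked for their likeness to *Fos*, so their high C + P values follow from that choice. *Egr2* and *Thbs1* were well above background on only 3 and 4 arrays.

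**Figure D4:**
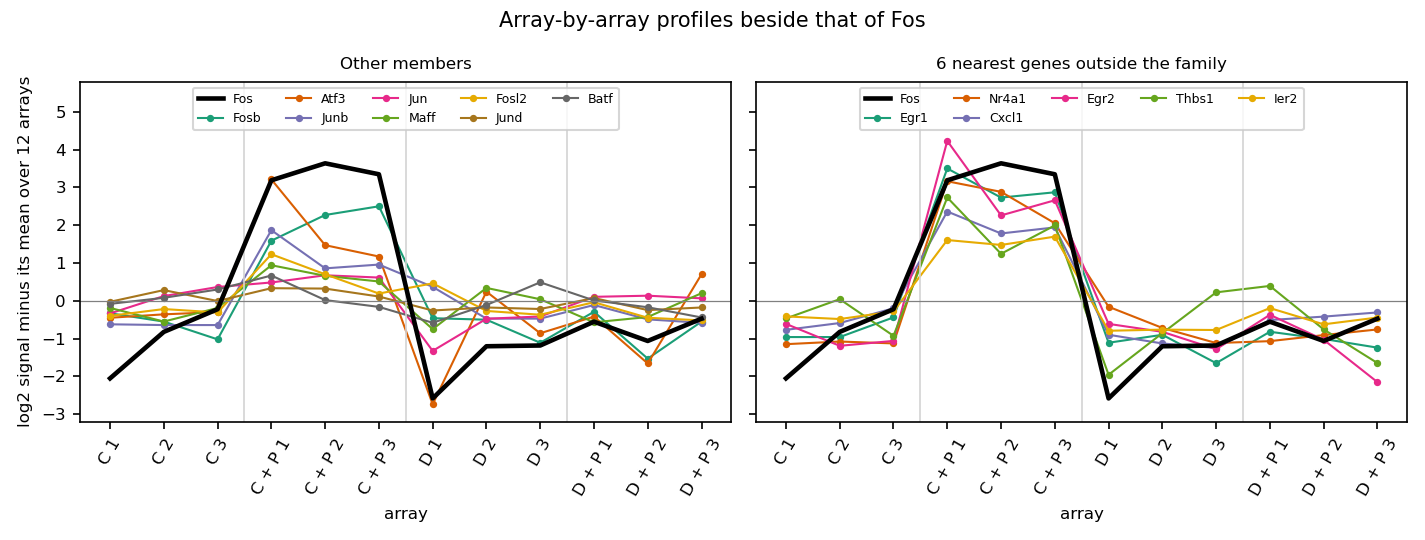
Log2 signal of each array minus the mean of the probe over the 12 arrays (vertical axis), for *Fos* (thick line) with the 8 other tested members (left) and with the 6 nearest genes outside the family (right). Lines join arrays of the same gene and have no order in time. *Egr1*, with an RMS difference of 0.68 log2, follows *Fos* most closely, and *Batf* and *Jund* stay near 0.

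Relatives, regulators and targets of AP-1 were described from lists drawn up from general knowledge with earlier results of these data known. Here and below a gene counted where any of its tested probes passed, whereas the percentages beside the counts are shares of single probes, an unlike measure. Of 28 bZIP relatives and partners (the *Atf*, *Creb*, *Maf*, *Nfe2*, *Bach* and *Cebp* genes), 26 were tested and 0 passed in any of the 5 comparisons by limma. At an unadjusted p under 0.05 there were 2 for C + P against C (where 4.43% of all probes reached it), 3 for D + P against C + P (7.46%), 4 for D against C (10.8%), 6 for D + P against D (13.3%) and 1 for the interaction (7.03%). In C + P against C their differences ranged from -0.28 to 0.41 log2, with a median of 0.01, and the largest was that of *Mafk*, which encodes another small Maf protein. In D + P against C + P the largest was that of *Maf*, at -1.02 log2 (SE 0.61).

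Of the genes upstream of AP-1 (MAP kinases, which phosphorylate Jun proteins and ELK factors, their own kinases, and SRF with its cofactors), all 33 on the array were tested. By limma 0 passed in any comparison. At an unadjusted p under 0.05 there were 2 for C + P against C (4.43% of all probes), 3 for D + P against C + P (7.46%), 7 for D against C (10.8%), 10 for D + P against D (13.3%) and 2 for the interaction (7.03%). Their differences ranged from -0.36 to 0.51 log2 in C + P against C, where the largest was that of *Map3k2*, a kinase that acts on MAP kinase kinases. In D against C the largest fitted difference was that of *Mapk13*, a p38 kinase, but it was well above background on 0 C arrays and 2 of 3 D arrays, so no value is given. The array measures mRNA and not the phosphorylation through which these kinases act.

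Of 42 genes known as AP-1 targets in various cells, 31 were tested. By limma 1 passed, *Nppa*, which encodes atrial natriuretic peptide, in D against C. At an unadjusted p under 0.05 there were 8 for C + P against C (4.43% of all probes), 6 for D + P against C + P (7.46%), 6 for D against C (10.8%), 4 for D + P against D (13.3%) and 8 for the interaction (7.03%). The called *Nppa* probe was 1.74 log2 higher in D than in C (SE 0.19, adjusted p 0.0278, limma), with means of 12.19 (C), 13.01 (C + P), 13.93 (D) and 13.75 (D + P), so it did not share the pattern of *Fos*. The brighter *Nppa* probe gave 1.67 log2 (adjusted p 0.215), and the call was lost without any 1 array other than D replicate 2. The summed signal of 3 atrial muscle markers, *Myl7*, *Myl4* and *Sln*, of which *Sln* was well above background on 0 arrays, was 255 to 324 in D and 249 to 353 in C.

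In the other 4 comparisons 0 target genes passed. In C + P against C 21 of the 31 were higher, from -0.30 log2 for *Edn1* (endothelin 1) to 1.49 log2 for *Trp53* (SE 0.88), with a median of 0.21 beside -0.01 over all probes. In D + P against C + P 12 of 31 were higher, with a median of -0.10, and *Acta1*, the skeletal actin of the fetal heart programme, gave the largest difference, at -1.60 log2 (SE 0.41, adjusted p 0.352, limma). The largest interaction was that of *Nppb*, the brain natriuretic peptide, at -1.91 log2 (SE 0.51, adjusted p 0.566, limma).

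Markers of other cell types were read beside these results, as the summed linear signal of the brightest probe of each gene. For 6 macrophage genes, all well above background on all arrays, it was 17200 to 27500 in C + P, 16800 to 19500 in C, 12800 to 16700 in D and 12900 to 14700 in D + P. For 5 neutrophil genes, of which *Cxcr2* was well above background on 0 arrays, it was 33100 to 49700 in C + P, 40100 to 43900 in C, 20800 to 36200 in D and 37500 to 47600 in D + P. For 6 fibroblast genes it was 42300 to 44700 in C + P, below the 44900 to 55700 of the other groups. For 6 endothelial genes, all well above background on all arrays, it was 10200 to 12300 in D and 13200 to 16600 in D + P, and 10900 to 14400 in the non-diabetic groups. For 6 skeletal muscle genes, of which *Myh1* and *Actn3* were well above background on 0 arrays, it was 413 to 428 in C + P and 227 to 401 elsewhere. Their part in the AP-1 values was not tested. Of all 11 marker lists, the 1 gene called was the platelet chemokine *Ppbp*, with a difference of -3.18 log2 in D + P against C + P (adjusted p 0.0336, limma).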

How the data were processed

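The authors labelled total RNA with Cy3, hybridised it to one-colour Agilent mouse arrays and read the spots with Feature Extraction, version 12.0.0.7 per the file headers. The deposited scanner files give background-subtracted signal intensity on a linear scale, not normalised between arrays. The deposited series table (47757 spots per array) gives intensity that the authors quantile normalised, also on a linear scale, and was used as an alternative. The deposited intensity was log2 transformed here, spots flagged as outliers were set to missing, arrays were quantile normalised and repeated spots were averaged, giving 56605 probes, of which 30859 were tested. Of the tested values 2.03% were not positive and significant and were kept. Limma 3.58.1 in R 4.3.3 fitted 1 mean per group to all 12 arrays (8 residual and 2.62 prior degrees of freedom), and adjusted p-values are Benjamini-Hochberg over all tested probes. The t-test and Bonferroni correction of the methods were run as an alternative. Other alternatives covered the scaling, the background correction, the filters, blocks for replicate number and slide column, and leaving out arrays. Precision is limited by 3 arrays per group.

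Samples were grouped by their labels. Members and lists were chosen with earlier results of these data known. Named from the lists were genes past the threshold, at most 4 per list and comparison, and otherwise the largest change of a list. Probe positions are those of the files (mm9), which do not give the part of the transcript. RefSeq tables of GRCm38.p6 paired 14 of the 15 member accessions with the symbol of the file. The SE of a difference is that of limma. A gene counted as past a threshold where any of its tested probes was, while shares of all are shares of probes. Over all tested probes, same-numbered arrays did not deviate together, which does not exclude a shared shift in single members. Promoter letters were counted in Python, and figures were drawn with matplotlib.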

Additional observations from a re-analysis of the deposited data

Results flagged for a closer look

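*Fosl1*, which encodes FRA1, lay outside the tested probes. Its log2 signal was 6.48 on D replicate 2, where it was well above background, whereas it was not well above background on any other array and read from 2.83 to 3.00 on the 3 C arrays. The other D arrays read 2.94 and 4.08. One array of 3 gives no spread for such a value, and no comparison was made with it.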

How the results depend on the processing

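Of 23 alternatives (11 other settings and 12 fits that left out 1 array), 22 gave differences of group means, the t-test having been used for counts only. Over these, 1095 differences of member probes were recomputed, of which 21 moved by 1 SD or more, and 0 of those that had passed changed sign. In D + P against C + P, 2 members passed as reported (*Fos* and *Fosb*). The count was 1 with the replicate block (*Fos*), 1 without the noisiest array of C + P, D and D + P (*Junb*), 0 with the methods' t-test, and 0 to 2 when 1 array was left out. In C + P against C, 2 passed as reported (*Fos* and *Fosb*), against 1 without the filter on dim probes (*Fos*), 1 with the replicate block (*Fos*), 1 without the noisiest arrays (*Junb*), 0 with the t-test, and 0 to 2 when 1 array was left out. With normexp background correction 3 passed in both (*Junb* too), and 1 (*Fos*) passed in the interaction, where 0 passed as reported. Of the other pathway genes, the 1 call in D against C (*Nppa*) became 0 with the replicate block, with the brightest probe of each gene, without the noisiest arrays and with the t-test, and 0 to 1 when 1 array was left out. The cause of these shifts was not tested. Over all tested probes the replicate numbers did not pair the arrays, but a shared shift in single members was not tested. For *Junb* probe 1, replicate 1 read highest in every group. Over 18 pairs of the same number the correlation of deviations from the group means was -0.20 to 0.20, and over 0.1 in 4, against -0.19 to 0.21 for pairs of other numbers. *Fos* and *Fosb* were not well above background on most arrays outside C + P, which limits their differences, and the median of all probes moved by at most 0.04 log2 under any alternative.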
